A study of Rattus norvegicus with 6 samples.

Results

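The corticosteroid response genes described here are 9 rat genes measured by 19 probes, of 61537 non-control probes on the array. They were chosen by name, with earlier results of the same comparison known, so their differences between treated and vehicle animals are given as descriptions without a p-value. They comprise 5 targets of the glucocorticoid receptor (Fkbp5, Zbtb16, Klf9, Tsc22d3 and Sgk1), the glucocorticoid receptor Nr3c1, the mineralocorticoid receptor Nr3c2, and Hsd11b1 and Hsd11b2, the enzymes that interconvert active and inactive corticosteroid. The tissue was renal cortex from 6 male Sprague-Dawley (Crl:CD(SD)) rats, bought at 5 weeks of age. Of these, 3 received corn oil, the vehicle, and 3 received sulfone bis(p-chlorophenyl), an organochlorine compound, at 250 mg/kg/day, in both groups for 4 weeks. No genetic alteration was involved, and each array held the RNA of 1 animal.

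Corticosterone, the main glucocorticoid of the rat, diffuses into cells and binds the glucocorticoid receptor, which is held ready by Hsp90 and its co-chaperones and then moves to the nucleus to bind response elements in DNA. In the kidney the supply of active steroid is set locally: Hsd11b1 regenerates corticosterone from its inactive 11-keto form, and Hsd11b2 inactivates it in the distal nephron, which leaves the mineralocorticoid receptor there to aldosterone. Fkbp5 is both a target of the receptor and a co-chaperone that lowers its affinity for hormone, so its transcript is widely used as a readout of receptor activity.

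Signals are given as log2 of the background-subtracted probe intensity minus the log2 75th percentile of that array, so 0 is the level of a probe brighter than 75% of the probes, and levels of different probes are not comparable with each other. Arrays had between 66.1% and 68.2% of non-control probes well above background, and the 75th percentile of intensity ran from 910.3 to 1101. Vehicle 1, 2 and 3 and treated 1 shared slide 1, and treated 2 and 3 lay on slide 2, so a difference between slides and a difference between treated 1 and the other treated animals cannot be told apart. The defining markers of renal cortex were present: all 7 proximal tubule genes and all 4 podocyte genes were well above background on all 6 arrays. Of 40643 tested probes 1 was called higher (0.00246%) and 2 lower (0.00492%), together 0.00738% at a limma adjusted p of at most 0.05, and none of the 18 tested member probes was among them. Without treated 1, which leaves each group on a slide of its own, the same limma test called 1469 probes higher (3.61%) and 2838 lower (6.98%). It called 0 without vehicle 2 and 0 without treated 2, where 4954 and 5948 probes had an unadjusted p under 0.05. Nothing in the labels says more of how the 3 animals of a group were kept or sampled, so p-values measure the spread between these animals only.

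Fkbp5 was the target with the most uniform difference over its probes. Its brightest probe measured 2.35, 1.40 and 1.87 in vehicle 1, 2 and 3, against 3.51, 3.86 and 4.12 in treated 1, 2 and 3. Every treated array lay above every vehicle array, with a gap of 1.16 between the nearest arrays of the groups. The means were 1.87 ± 0.48 (SD, n = 3) and 3.83 ± 0.31 (SD, n = 3), a log2 difference of 1.96 (SE 0.27), or 3.88-fold. The other two probes gave 2.04 (SE 0.29) and 1.97 (SE 0.32), so the 3 probes differed among themselves by less than 1 standard error. On slide 1 alone, where only treated 1 was dosed, the 3 probes gave 1.63, 1.65 and 1.32.

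Zbtb16, a zinc finger transcriptional repressor that glucocorticoids induce in many tissues, showed the widest difference of the 9 genes, from dim vehicle values. On its brighter probe the vehicle arrays had -5.11, -6.43 and -5.13, of which vehicle 1 and 3 were well above background and vehicle 2 was not. The treated arrays had -2.88, -1.57 and -1.44, all well above background and all above the vehicle arrays by at least 2.24. The log2 difference was 3.60 (SE 0.52), and it was 3.36 with the dim vehicle value raised to the lowest signal that counted as above background on that array. Treated 1 lay below the other treated arrays, and on slide 1 alone the difference was 2.68. The second probe was well above background on vehicle 1 only, where it had -4.36, against -3.99, -3.35 and -3.21 in the treated arrays. Its difference of 2.37 (SE 0.67) became 1.71 with dim values at that floor.

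Klf9, a Krüppel-like factor induced by glucocorticoid and thyroid hormone, differed little but evenly. The brighter probe had 3.33, 3.27 and 3.41 in vehicle 1, 2 and 3 and 3.71, 3.69 and 3.73 in treated 1, 2 and 3. The treated arrays spanned 0.044 and lay above all vehicle arrays. The log2 difference was 0.37 (SE 0.07), or 1.29-fold, and 0.37 on slide 1 alone. The dimmer probe gave 0.58 (SE 0.11), with groups that did not overlap either.

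Tsc22d3, which encodes the anti-inflammatory leucine zipper protein GILZ, did not separate the groups. Its brighter probe had 2.67, 1.92 and 1.41 in vehicle 1, 2 and 3, so vehicle 1 was higher than treated 1 and treated 2, which had 2.53 and 2.58, and was below treated 3 at 2.81. The spread among vehicle arrays (SD 0.64) was as wide as the log2 difference of 0.64 (SE 0.31). The second probe had a difference of 0.51 (SE 0.37), and 0.05 on slide 1 alone. Without vehicle 1 the brighter probe gave 0.98, and without vehicle 3 it gave 0.35.

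Sgk1, the serum- and glucocorticoid-regulated kinase that keeps the epithelial sodium channel at the cell surface, was spread alike in both groups. Its only probe had 3.60, 2.52 and 2.06 in the vehicle arrays and 3.41, 3.54 and 2.20 in the treated arrays. Vehicle 1 was the highest of all 6 arrays, and treated 3 lay among the lower vehicle values. The log2 difference of 0.32 (SE 0.51) was smaller than its standard error. It was -0.01 without vehicle 3, 0.76 without vehicle 1 and 0.75 without treated 3.

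**Figure D1:**
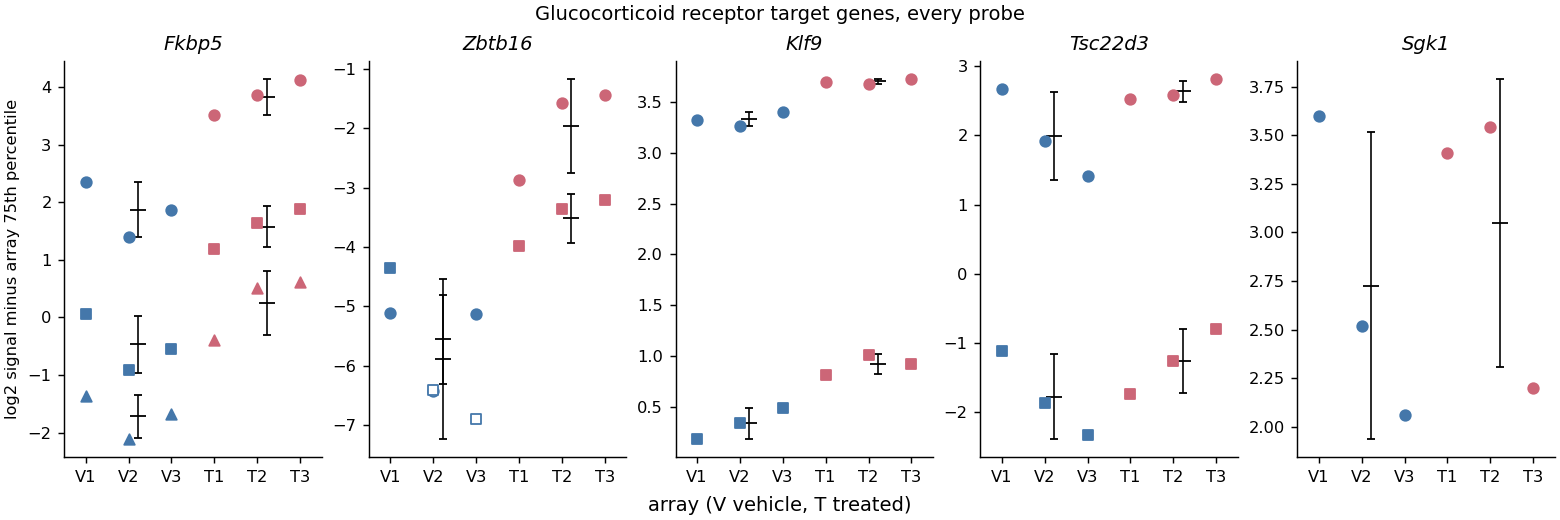
Log2 signal minus the array's 75th percentile (vertical axis) of every probe of the 5 target genes in each array (V1 to V3 vehicle, T1 to T3 treated). Circles, squares and triangles are the probes of a gene from bright to dim, open symbols are values not well above background, and black bars are the group mean ± SD (n = 3). Treated arrays lie above all vehicle arrays for Fkbp5, Zbtb16 and Klf9, whereas V1 lies among or above treated arrays for Tsc22d3 and Sgk1.

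Promoter windows of the targets were set beside these values, because direct induction by the receptor is classically tied to a palindromic response element. RefSeq windows (GRCr8, from 250 bases before to 50 after a start) were found for 5 of the 9 genes, 10 windows in all, counting alternative starts. None of the 10 held the palindromic glucocorticoid response element in its relaxed form, which 0.439% of all 33469 windows hold, or in its full consensus form, which 0.0149% hold. None held the single hexamer AGAACA on either strand, which 20.7% of all windows hold and which overlaps the full consensus. No match says only that these letters are not in these windows, and the known elements of Fkbp5 lie in its introns. The bases before 1 start of each of the 4 targets with a window are shown 5′ to 3′ on the gene's strand, with capitals marking the GC box GGGCGG (or its reverse complement) and the TATA letters TATAAA, searched on both strands.
Fkbp5 (GRCr8 chr20:6543556-6543805, minus strand): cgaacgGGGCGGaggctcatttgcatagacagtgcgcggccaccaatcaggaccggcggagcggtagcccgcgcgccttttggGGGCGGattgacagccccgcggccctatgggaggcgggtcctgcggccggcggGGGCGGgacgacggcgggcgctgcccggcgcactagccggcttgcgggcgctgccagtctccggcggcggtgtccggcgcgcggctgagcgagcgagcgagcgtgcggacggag
Klf9 (GRCr8 chr1:230126396-230126645, plus strand): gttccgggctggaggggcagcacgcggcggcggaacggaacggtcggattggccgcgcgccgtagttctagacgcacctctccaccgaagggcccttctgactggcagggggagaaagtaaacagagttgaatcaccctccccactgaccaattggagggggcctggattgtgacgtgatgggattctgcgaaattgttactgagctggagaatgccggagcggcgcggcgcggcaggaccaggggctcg
Tsc22d3 (GRCr8 chrX:109010035-109010284, minus strand): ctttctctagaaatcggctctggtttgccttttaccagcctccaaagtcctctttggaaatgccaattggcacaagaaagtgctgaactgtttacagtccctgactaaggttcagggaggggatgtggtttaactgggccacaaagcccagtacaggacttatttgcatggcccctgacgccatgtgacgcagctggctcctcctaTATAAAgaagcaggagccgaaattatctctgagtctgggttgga
Sgk1 (GRCr8 chr1:24804832-24805081, minus strand): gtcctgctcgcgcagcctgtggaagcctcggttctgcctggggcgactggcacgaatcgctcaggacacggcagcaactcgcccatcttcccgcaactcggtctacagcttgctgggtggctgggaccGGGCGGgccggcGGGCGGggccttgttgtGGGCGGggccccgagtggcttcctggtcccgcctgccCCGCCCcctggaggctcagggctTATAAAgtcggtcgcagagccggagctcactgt
The windows shown for Fkbp5 and Sgk1 held 4 GC boxes each, counting the bases after the start, and their upstream bases had a GC content of 76% and 69.6%, against a median of 51.2% over all windows. The Sgk1 start also had TATA letters, as did the Tsc22d3 start shown, which had no GC box. Klf9 had neither kind of match at a GC content of 63.6%. Of all windows, 33.1% hold a GC box and 14.2% hold TATAAA, and among the 10 member windows 7 and 3 did.

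Nr3c1, the glucocorticoid receptor, had lower values in treated arrays on all 3 of its probes. The brightest probe had 0.97, 1.13 and 1.05 in vehicle 1, 2 and 3 and 0.95, 0.62 and 0.71 in treated 1, 2 and 3. Treated 1 lay just below vehicle 1, by 0.015, and treated 2 and 3 lay clearly below. The log2 difference was -0.29 (SE 0.11), and -0.54 (SE 0.18) and -0.35 (SE 0.10) on the other two probes. On slide 1 alone it was -0.095, -0.15 and -0.51, so the probes did not order the treated arrays alike.

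Nr3c2, the mineralocorticoid receptor, gave probes that disagreed. Its bright probe had 0.34, 0.44 and 0.30 in the vehicle arrays and 0.44, 0.11 and -0.17 in the treated arrays. Treated 1 lay with the highest vehicle array and treated 3 was the lowest of all, with a log2 difference of -0.23 (SE 0.16) and of 0.08 on slide 1 alone. A dim probe near the detection limit gave 0.16 (SE 0.07), and the dimmest probe was well above background on no array and was not tested. The bright probe gave -0.083 without treated 3 and -0.39 without treated 1. The sign for Nr3c2 thus depended on the probe and on the slide.

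Hsd11b1, the dehydrogenase that regenerates corticosterone, had higher values in every treated array. Its brighter probe had 5.87, 5.88 and 5.97 in vehicle 1, 2 and 3 and 6.43, 6.28 and 6.43 in treated 1, 2 and 3. The groups were separated by 0.31, against a spread of 0.10 among vehicle and 0.15 among treated arrays. The log2 difference was 0.47 (SE 0.08), or 1.39-fold, and 0.52 on slide 1 alone. The other probe gave 0.34 (SE 0.11).

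Hsd11b2, the dehydrogenase that inactivates corticosterone in mineralocorticoid target cells, had lower values in every treated array. Its only probe had 5.61, 5.68 and 5.70 in the vehicle arrays and 5.22, 5.28 and 5.20 in the treated arrays. The means were 5.66 ± 0.04 (SD, n = 3) and 5.23 ± 0.04 (SD, n = 3), a log2 difference of -0.43 (SE 0.07), and -0.44 on slide 1 alone. Against the vehicle mean the 2 dehydrogenases differed in opposite directions in each of the 3 treated animals, Hsd11b1 by 0.37 to 0.52 on its brighter and 0.18 to 0.52 on its other probe, and Hsd11b2 by -0.46 to -0.38.

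**Figure D2:**
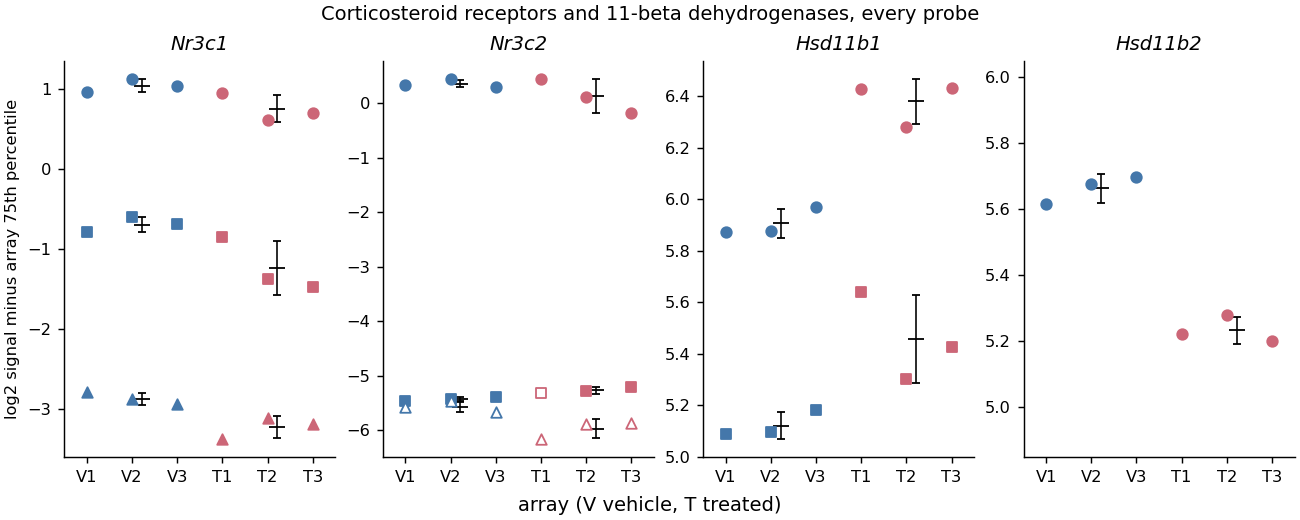
Log2 signal minus the array's 75th percentile (vertical axis) of every probe of the 2 receptors and 2 dehydrogenases in each array (V vehicle, T treated). Symbols and bars are as for the target genes, with circles for the brightest probe, open symbols not well above background and bars for the mean ± SD (n = 3). Hsd11b1 lies higher and Hsd11b2 lower in all treated arrays, and the Nr3c2 probes disagree.

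Of the 18 tested member probes, 10 had every treated array above every vehicle array and 4 had every treated array below. Over all tested probes these shares were 11.5% and 17%, and since the comparison served to choose the members nothing is read from the count. The dim Nr3c2 probe was among the 10. So were both Zbtb16 probes, which entered the test through the treated group alone, where they were higher. The probes that did not separate the groups were both of Tsc22d3, that of Sgk1 and the bright Nr3c2 probe.

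**Figure D3:**
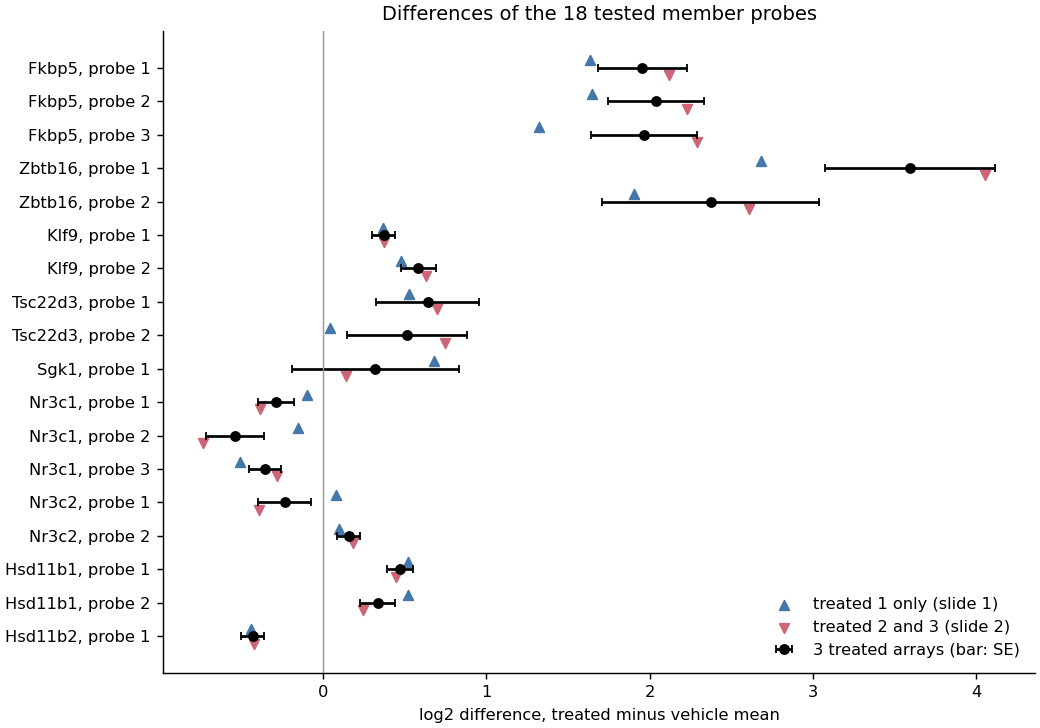
Log2 difference from the vehicle mean (horizontal axis) of the 18 tested member probes, numbered from the brightest in each gene. Black points with bars are the 3 treated arrays with the standard error of the fit, upward triangles treated 1 alone and downward triangles the mean of treated 2 and 3. Fkbp5 and Zbtb16 differ less in treated 1 than in treated 2 and 3, and Klf9, Hsd11b1 and Hsd11b2 have the same sign in both.

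Because bulk cortex was profiled, fewer cells of a type and less RNA per cell cannot be told apart. Hsd11b1 in the rat kidney belongs mainly to the proximal tubule and Hsd11b2 to the distal convoluted tubule and collecting duct, so the markers of those segments are given beside them. The 7 proximal tubule markers had a summed linear signal, relative to the 75th percentile, of 983 to 1033 in vehicle and 830 to 1108 in treated arrays. Their log2 differences had a median of 0.04, 4 positive and 3 negative, and the median was -0.32 on slide 1 alone. For the straight proximal tubule 6 of 6 markers were well above background on every array, and their summed signal was 44.1 to 128 in vehicle and 141 to 251 in treated arrays. All 6 had positive log2 differences, where 5754 of all 12118 tested genes were positive. Their median was 1.36, and 1.66 on slide 1 alone, and 0 passed the test (limma adjusted p from 0.105 to 0.326). In 4 of them every treated array exceeded every vehicle array, beside 13.9% of all tested genes. The amino acid transporter Slc7a13 of this segment had 2.50, 5.27 and 6.26 in vehicle 1, 2 and 3 and 7.43, 6.12 and 6.13 in treated 1, 2 and 3. Among vehicle arrays the SD of these markers ran from 0.07 for Slc5a1 to 1.95 for Slc7a13. It was 0.06 for the brighter Hsd11b1 probe. The part of proximal tubule content in the Hsd11b1 difference was not tested. Of the distal convoluted tubule and collecting duct markers, 8 of 9 with a probe were well above background on every array, Pvalb was not on any, and the summed signal was 172 to 180 in vehicle and 137 to 179 in treated arrays. All 8 tested ones had negative log2 differences, where 5754 of all 12118 tested genes were positive. Among the 8, Slc12a3, Scnn1b and Scnn1g are also counted with the aldosterone-regulated genes below. The median of the 8 was -0.21, and 0 passed the test (limma adjusted p from 0.196 to 0.785). Relative to the vehicle mean the medians were -0.35, -0.12 and -0.17 in treated 1, 2 and 3, where Hsd11b2 had -0.44, -0.38 and -0.46. The part of distal nephron content in the Hsd11b2 difference was not tested.

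Liver also expresses Hsd11b1, and transcripts of liver type varied between arrays: the 10 liver markers had a median, set against the vehicle mean, of 1.18, 0.33 and -1.58 in vehicle 1, 2 and 3, and -0.38, 0.25 and 2.17 in treated 1, 2 and 3. Their summed signal was 15.3 to 46.0 in vehicle and 31.0 to 82.5 in treated arrays. The part of liver transcripts in the Hsd11b1 difference was not tested. Of the 8 adrenal cortex markers, which would mark a piece of the steroid-producing gland, Cyp11b1, Cyp11b2, Star and Akr1b7 were well above background on no array. Only Cyp21a1 and Hsd3b1 were well above background on all 6. The summed adrenal signal was 0.713 to 1.13 in vehicle and 1.27 to 1.97 in treated arrays, most of it from Hsd3b1. Hsd3b1 had -0.98, -1.38 and -0.43 in vehicle and 0.44, -0.08 and 0.24 in treated arrays. Cyp21a1 had -2.23, -1.86 and -1.71 in vehicle and -0.89, -2.00 and -2.10 in treated arrays, so the 2 genes did not differ alike. The part of adrenal transcripts in the member values was not tested.

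Beyond the members, 26 further genes that the activated receptor is known to induce were tested, and limma called 0 of them adjusted over all probes, with 8 at an unadjusted p under 0.05. Their median log2 difference was 0.38, against -0.01 over all 12118 tested genes. Of the 26, 21 were positive and 5 negative, where 5754 of all tested genes were positive. The list median was 0.24 without vehicle 3 and 0.22 with slide as a random block. In 4 of them every treated array exceeded every vehicle array, and in 2 every treated array was lower, counts set beside 13.9% and 16.8% of all tested genes. Over all tested probes 20.6% had an unadjusted p under 0.05. Among the 8 here was Tgm2, named after its values were seen, at -0.48 (SE 0.16) with every treated array lower. Per1 and Per2 of this list are also counted with the clock genes below. Igfbp1, an insulin-like growth factor binding protein induced by glucocorticoid and fasting, had 0.73, 0.97 and 0.44 in vehicle and 1.75, 2.32 and 2.59 in treated arrays, a log2 difference of 1.50 (SE 0.25, limma adjusted p = 0.094). The differences were 1.07 (SE 0.40) for the kinase Map3k6, 1.05 (SE 0.46) for Pdk4, which restrains glucose oxidation, and 0.92 (SE 0.43) for the small GTPase Rasd1, with limma adjusted p-values from 0.216 to 0.281. Without treated 1, when slide and treatment coincide, 3 of the 26 were called higher, beside 3.61% of all probes, namely Igfbp1 and the gluconeogenic genes Pck1 and G6pc1.

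The vehicle animals themselves differed in these genes. Vehicle 1 was the highest vehicle array for 20 of the 26, against 34.3% of all tested genes, and vehicle 3 was the lowest for 15. The same order was seen in Tsc22d3 and Sgk1. In 10 of the 26 vehicle 1 exceeded the other vehicle arrays by over 0.5, among them the clock gene Per1 (-1.36, against -2.50 and -2.83), the phosphatase gene Dusp1 (-1.81, against -2.77 and -2.58) and the stress gene Ddit4 (2.82, against 1.71 and 1.44), which were named after their values were seen. For Per1 the treated arrays had -1.67, -1.48 and -2.24, so vehicle 1 was the highest of all 6 arrays. The list median relative to the vehicle mean was 0.24, -0.05 and -0.19 in vehicle 1, 2 and 3 and 0.30, 0.42 and 0.43 in treated 1, 2 and 3. Klf9, Hsd11b1 and Hsd11b2 did not share the vehicle order, with vehicle 1 at -0.008, -0.034 and -0.048 against the vehicle mean on the brightest probe of each.

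**Figure D4:**
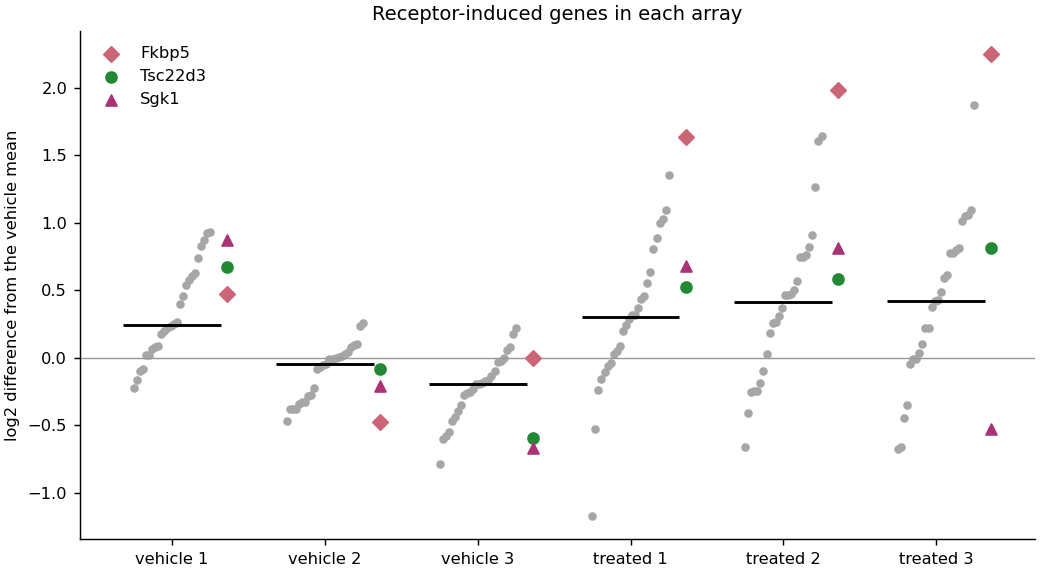
Log2 difference from the mean of the vehicle arrays (vertical axis) in each array for the 26 tested genes the receptor is known to induce (grey points, ordered by value, with a black line at the median) and for Fkbp5, Tsc22d3 and Sgk1 (coloured symbols). The median of vehicle 1 is 0.24 and that of treated 1 is 0.30, whereas Fkbp5 lies at 0.48 in vehicle 1 and at 1.63 or above in treated arrays.

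Daily rhythm also drives several of these genes, and the labels give no time of sampling. Of 14 tested clock genes limma called 0 (adjusted p from 0.193 to 0.702) and 3 had an unadjusted p under 0.05, beside 20.6% of all tested probes. Their median log2 difference was -0.04, with 7 positive and 7 negative, so this median does not show the differences of opposite sign. The median was 0.098 with probes of a gene averaged and 0.033 without treated 2. Nr1d1, a repressor of the clock that peaks by day in rat tissues, had -2.77, -2.02 and -0.70 in vehicle 1, 2 and 3 and -1.08, -0.60 and 0.35 in treated 1, 2 and 3. Its log2 difference of 1.39 (SE 0.60, limma adjusted p = 0.26) thus lay beside a spread among vehicle arrays of 1.05 (SD). Bhlhe40, which represses clock-driven genes, had a difference of -0.82 (SE 0.30), Nr1d2 of 0.75 (SE 0.40) and Cry1 of -0.73 (SE 0.41), and none of these passed. The 3 genes with an unadjusted limma p under 0.05 were Bhlhe40, Tef at 0.71 (SE 0.24) and Nfil3 at -0.64 (SE 0.26). Dbp had 0.66 (SE 0.50) and Bmal1 had -0.59 (SE 0.36). Tef, Nfil3, Dbp and Bmal1 were named after their values were seen. The part of sampling time in the member values was not tested.

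Inflammatory genes that glucocorticoids are known to hold down had a median log2 difference of -0.51 over 11 tested genes. Of these 10 were negative, where 5754 of all 12118 tested genes were positive. The limma test called 0, with 3 at an unadjusted p under 0.05, beside 20.6% of all tested probes. Cxcl10, a chemokine for T cells, had 0.30, 0.04 and 0.17 in vehicle and -1.05, -1.37 and -0.93 in treated arrays, a difference of -1.29 (SE 0.14, limma adjusted p = 0.064). Ccl2, a chemokine for monocytes, differed by -1.39 (SE 0.23, limma adjusted p = 0.095). Both had groups that did not overlap, as did 4 of the 11 in all, each lower in treated arrays, beside 16.8% of all tested genes. Mmp9, a matrix protease gene, had -0.87 (SE 0.39) and Tnf had -0.78 (SE 0.32), with limma adjusted p-values of 0.272 and 0.243. Macrophages express several of these genes. The 5 macrophage markers had a summed signal of 77.6 to 87.6 in vehicle and 54.2 to 90.1 in treated arrays, most of it from Lyz2. The 4 tested ones had medians of -0.06, -0.59 and -0.53 in treated 1, 2 and 3 relative to the vehicle mean. All 4 had negative log2 differences, with a median of -0.37, and limma called 0. In 1 of them, Adgre1 at -0.85 (SE 0.24), every treated array was lower, beside 16.8% of all tested genes. The part of macrophage content in these differences was not tested.

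Among other genes that handle corticosteroids, 7 were tested with a median of 0.21. Of these limma called 0, with 3 at an unadjusted p under 0.05, namely H6pd, Akr1c14 and Serpina6. Because Akr1c14 and Serpina6 entered the test through the treated group alone, nothing is read from this count beside 20.6% of all tested probes. The median was 0.029 over the 5 above background on every array and 0.12 with normexp, and ran from 0.12 without treated 3 to 0.32 without treated 2. H6pd supplies the NADPH that lets Hsd11b1 run in the regenerating direction. It had 1.70, 1.87 and 2.03 in vehicle and 2.35, 2.65 and 2.77 in treated arrays, a log2 difference of 0.72 (SE 0.14, limma adjusted p = 0.11), and 0.48 on slide 1 alone. Its treated arrays lay above all vehicle arrays, as those of Hsd11b1 did. The steroid reductases Srd5a2 and Srd5a3 differed by 0.21 (SE 0.12) and 0.03 (SE 0.07), and the efflux pump gene Abcb1b by -0.22 (SE 0.26). Akr1c14, a hydroxysteroid dehydrogenase gene named here after its values were seen, had -5.47, -5.92 and -7.09 in vehicle and -5.03, -4.97 and -3.65 in treated arrays. It and Serpina6 were well above background on all treated arrays but on only 1 and 2 vehicle arrays, so they entered the test through the treated group alone.

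The machinery that holds and serves the receptors had values on both sides of 0. Over 17 tested chaperones, co-chaperones and coregulators the median log2 difference was -0.04 (-0.088 after quantile normalization). Of these limma called 0, with 1 at an unadjusted p under 0.05, beside 20.6% of all tested probes. Hsp90ab1, which encodes the constitutive Hsp90, had the widest difference, 0.36 (SE 0.09, limma adjusted p = 0.144). The corepressor Nrip1 had -0.23 (SE 0.14) and the coactivator Ppargc1a had 0.18 (SE 0.13). Fkbp4, the co-chaperone that competes with Fkbp5 for the receptor complex, differed by -0.09 (SE 0.11), beside 1.96 for Fkbp5.

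Aldosterone-regulated transport genes of the distal nephron had a median of 0.08 over 14 tested genes. Of these limma called 0, with 3 at an unadjusted p under 0.05, beside 20.6% of all tested probes. Fitting slide as a fixed block, which leaves treated 1 against the vehicle arrays, turned the median to -0.045. Dropping treated 3 gave a median of 0.020 and dropping treated 1 gave 0.19. The outlying member was Usp2, a deubiquitinase regulated by aldosterone and the clock, with 2.09, 1.84 and 1.78 in vehicle and 2.84, 3.00 and 2.99 in treated arrays. Its log2 difference was 1.04 (SE 0.11, limma adjusted p = 0.064), and 0.94 on slide 1 alone. Ndrg2 had 0.49 (SE 0.12), the epithelial sodium channel subunit gene Scnn1a had 0.37 (SE 0.16) and the channel-activating protease gene Prss8 had 0.27 (SE 0.15), none past the threshold. The subunit genes Scnn1b and Scnn1g had -0.10 (SE 0.18) and -0.26 (SE 0.09).

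**Figure D5:**
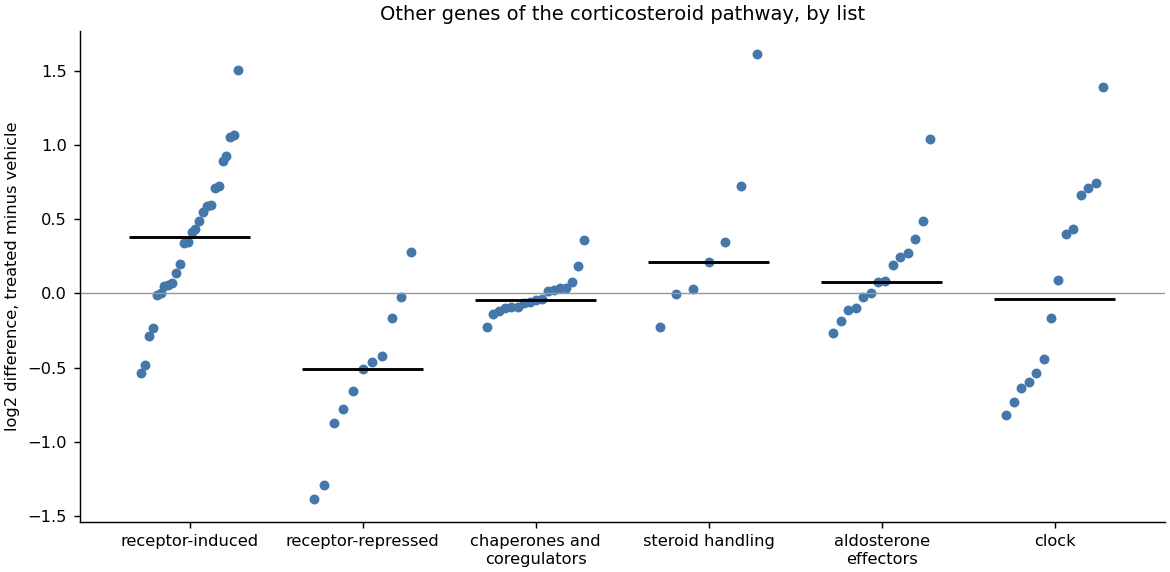
Log2 difference, treated minus vehicle (vertical axis), of each tested gene in 6 lists of the corticosteroid pathway, ordered by value within a list, with a black line at the list median. The medians are 0.38 for receptor-induced and -0.51 for receptor-repressed genes and lie between -0.04 and 0.21 for the others, and no single gene passed the test. The highest steroid-handling point, Akr1c14, was well above background on only 1 vehicle array.

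Profiles were also compared over all 6 arrays, with likeness measured as the root mean square difference between 2 log2 profiles centred on their own means, among 11674 other genes well above background on every array. The nearest to Fkbp5, whose own profile spread by 1.03 about its mean, were Myzap (0.18), the glutamine transporter gene Slc38a3 (0.29) and Fibin (0.35). Myzap had 0.33, -0.47 and -0.06 in vehicle and 1.11, 1.87 and 2.20 in treated arrays, with the same order of arrays as Fkbp5. Tsc22d3 was most like Derl3 (0.15), Surf6 (0.20) and Unc13b (0.21), each with vehicle 1 highest and vehicle 3 lowest among vehicle arrays. Klf9 was most like Csf2ra (0.021), Prps1l3 (0.040) and Gkap1 (0.042), and Hsd11b1 most like Slc33a1 (0.037), Sox13 (0.039) and Gulp1 (0.042). Between members the smallest distance was 0.07, of Klf9 to Hsd11b1, while Fkbp5 lay at least 0.73 from every other member well above background on all arrays. This distance depends on the size of a profile as well as its shape. Klf9 and Hsd11b1 spread by only 0.19 and 0.24 about their means, against 1.03 for Fkbp5.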

How the data were processed

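Each animal's RNA was labelled with Cy3 and hybridised to its own 1-colour array, per the labels' protocols. Agilent Feature Extraction 10.7.1.1, per the file headers (10.7 in the submitters' processing notes), gave each spot a background-subtracted intensity, which the authors deposited unnormalized. Their deposited series table, whose column medians were 0.105 to 0.11, tracked these intensity values after scaling and served as an alternative.

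Here the log2 of each processed intensity was taken relative to the array's own 75th percentile. No spot was saturated, and outlier flags removed 11 probes. Probes entered the test when 1 group or both had all 3 arrays well above background (40643 probes). limma 3.58.1 in R 4.3.3 gave two-sided p-values, adjusted by Benjamini-Hochberg over all tested probes (threshold 0.05). It was tested on simulated data. Accessions without versions were matched to RefSeq genes of assembly GRCr8 (28206 probes with 1 symbol, 33331 with none). In gene lists a gene stood for its brightest tested probe. The number of arrays limits the precision. Members and lists were chosen with earlier results of these data known. Genes of a list were named when called, otherwise the 4 with the largest absolute difference above background on all arrays, and 1 gene so chosen is not reported here. For normexp, median foreground and background intensity were used.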

Additional observations from a re-analysis of the deposited data

How the results depend on the processing

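Across 18 alternatives, Fkbp5, Klf9, Tsc22d3, Nr3c1, Hsd11b1 and Hsd11b2 kept the sign of their log2 difference, as did Zbtb16 in 17 (it has no value where every array must be above background). Some alternatives could not change it: other filters, the replicate block and the trend and robust variance leave a difference of group means as it was. Raising dim values alters dim probes only, and the series table holds the same intensities rescaled. Sgk1 was -0.01 without vehicle 3. Of 161 member values, those that could not change included, 159 kept the sign and 7 moved by more than the replicate spread. With slide as a fixed block Zbtb16 was 2.68, Nr3c1 -0.095 and Nr3c2 0.081. Slide 2 holds treated arrays only, so this block gives treated 1 against the vehicle mean, the values given above for slide 1 alone. Slide and animal cannot be told apart there. With normexp Zbtb16 was 1.91, Klf9 0.27 and Hsd11b2 -0.38, and averaged over probes Klf9 was 0.48. The cause of these other moves was not tested.

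Probes called higher and lower numbered 12 and 5 with median centring, 97 and 40 with normexp, 109 and 47 with trend and robust variance, 0 and 1 without a filter or with slide as a fixed block, and 0 and 0 with dim values at the floor or with probes required above background on every array. Leaving out 1 array gave 0 to 1469 higher and 0 to 2838 lower, the highest without treated 1. Same-numbered animals did not deviate together (correlations of -0.21, 0.01 and -0.16), and with the replicate block limma called 0 higher and 0 lower, with 7240 at an unadjusted p under 0.05.

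Receptor-repressed genes called numbered 2 with normexp (Ccl2, Cxcl10) and 1 with trend and robust variance (Cxcl10), and aldosterone effectors 1 under each (Usp2). Of all 40643 tested probes these settings called 137 and 156 in either direction. Leaving out 1 array called 0 to 3 induced, 0 to 3 repressed, 0 to 2 steroid-handling, 0 to 2 aldosterone and 0 to 1 clock genes, the highest without treated 1 (Pck1, G6pc1 and Igfbp1; Ccl2, Cxcl10 and Nos2; H6pd and Serpina6; Usp2 and Ndrg2; Clock). Without treated 1 slide and treatment coincide, and 3.61% of all tested probes were called higher and 6.98% lower. Medians were 0.098 for clock genes averaged over probes and -0.088 for machinery after quantile normalization. With slide as a fixed block the median of aldosterone effectors was -0.045. For steroid handling the medians were 0.12 (normexp) and 0.029 (all arrays above background). Leaving out 1 array gave 0.24 to 0.48 for induced, -0.69 to -0.43 for repressed, 0.020 to 0.19 for aldosterone and 0.12 to 0.32 for steroid-handling genes.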
